A study of Mus musculus with 32 samples.

Results

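The genes described are 7 of the 55385 in the deposited tables, the receptors of the TREM family and the adaptors through which they signal, chosen by name and not by their values. They are the receptor genes Trem1, Trem2, Trem3, Treml2 and Treml4 and the adaptor genes Tyrobp, which encodes DAP12, and Hcst, which encodes DAP10. All 7 passed the filter on low counts and were tested. TREM receptors are single-span proteins of myeloid cells with an immunoglobulin-type outer domain. Trem1, Trem2 and Trem3 have tails too short to signal and couple in the membrane to DAP12, whose tyrosine motif (ITAM) recruits the kinase Syk, while DAP10 carries a motif that binds phosphoinositide 3-kinase. In the brain Trem2 is known as a microglial receptor for lipids, lipoproteins and cell debris, and Trem1 as an amplifier of inflammation in neutrophils and monocytes.

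The study asked how microglia change at a cortical stab wound over time. Each C57BL/6 mouse was heterozygous for Cx3cr1CreER and got tamoxifen (180 mg/kg on each of 5 days, at an age of 8 to 10 weeks) before the wound, so that cells driven by Cx3cr1 carried the yellow protein EYFP, and this holds for both sides. Cx3cr1 is also active in border macrophages and in monocytes. EYFP+ cells were sorted on days 1, 4, 7 and 14 from the wound or from the matching cortex of the other hemisphere, in females and in males. That gives 16 groups of day, sex and side, each deposited as 2 columns. The columns of a group differed by little more than counting noise, with a median chi-square per gene of 0.475 to 0.639 against 0.455 for counting noise alone, and were summed. The result is 16 libraries in 8 pairs of a wound and a non-injured library of the same day and sex. The labels name no separate animals, so p-values measure only the spread between these samples. In the fit described below that spread is between the female and the male pair of a day. Sex, animal and technical differences cannot be told apart in it.

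Total counts ran from 20864031 to 55378880 per library. The day 4 male non-injured library stood apart with 25.7% mitochondrial counts, where the other 15 lay between 0.697% and 7.55%. The day 14 female libraries detected the fewest genes, 14737 at the wound and 14777 on the other side. All others detected 18732 to 40975. All 10 microglial markers examined were detected in every library, with a summed level of 10070 to 39730 CPM (counts scaled to library size with TMM factors) at the wound and 10320 to 69560 CPM on the other side. In the fit described below, for the mean over days, 1 of the 10 rose and 6 fell. Of all genes tested, 7.76% rose and 7.96% fell, which is the share to set beside the marker counts here. Of 10 monocyte markers 8 rose and 1 fell, and their sum was higher at the wound in 8 of 8 pairs (321.1 to 2519 CPM against 49.5 to 352.3 CPM). Of 12 neutrophil markers 7 rose and none fell. Their sum overlapped between the sides (60.29 to 664.8 CPM against 51.85 to 714.5 CPM), with Csf3r, which other myeloid cells also express, at a median of 157.8 CPM at the wound and 293.5 CPM elsewhere. Ly6g, which defines neutrophils, reached at most 0.526 CPM at the wound, while Mmp8 reached 150.2 CPM and S100a8 108.8 CPM there, against at most 5.64 and 4.32 CPM elsewhere. No listed marker of these cell types was at 0 in all libraries of a side. The RNA is of bulk samples, so fewer cells of a type and less RNA per cell cannot be told apart.

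The receptor genes form 1 cluster of 121.4 kilobases on the plus strand of chromosome 17 (GENCODE M21, GRCm38). Their order is Trem1 (chr17:48232768-48246924), Trem3 (chr17:48247777-48258841), Treml4 (chr17:48264295-48275360), Treml2 (chr17:48299498-48312533) and Trem2 (chr17:48346401-48354147). Only 852 bases lie between Trem1 and Trem3, and a processed pseudogene on the minus strand, AC241601.2, overlaps Trem1. Tyrobp (chr7:30413760-30417585, plus strand) and Hcst (chr7:30417712-30419854, minus strand) lie tail to tail on chromosome 7 with 126 bases between them. The library kit keeps no strand, so reads that run past the end of either adaptor gene, or that fall on the pseudogene in Trem1, cannot be assigned by strand. RefSeq promoter sequences (GRCm38.p6) were found for 4 of the 7 genes. Those of Trem1 and Trem2 are shown because these receptors, at the ends of the same cluster, had opposite signs of change at day 1. Each sequence is the 250 bases before the RefSeq start, with capitals marking the core GAGGAA that the myeloid factor PU.1 binds, searched on both strands.
Trem1 (chr17:48232489-48232738, plus strand): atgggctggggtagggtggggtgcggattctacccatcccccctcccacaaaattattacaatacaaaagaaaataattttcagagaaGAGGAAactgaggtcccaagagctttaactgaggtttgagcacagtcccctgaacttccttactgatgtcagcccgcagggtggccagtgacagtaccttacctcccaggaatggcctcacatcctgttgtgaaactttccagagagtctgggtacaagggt
Trem2 (chr17:48346151-48346400, plus strand): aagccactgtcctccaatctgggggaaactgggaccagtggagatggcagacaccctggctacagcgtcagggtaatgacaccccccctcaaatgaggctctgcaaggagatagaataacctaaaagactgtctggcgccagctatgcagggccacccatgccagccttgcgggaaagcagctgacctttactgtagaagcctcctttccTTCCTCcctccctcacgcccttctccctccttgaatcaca
The Trem1 window held 1 match, which begins 162 bases before the start, and the Trem2 window 1 match on the other strand, 40 bases before it. The Treml4 window held 2 matches and that of Hcst 0. This core was in 23.3% of 32851 promoter windows of that length. The loose AP-1 pattern TGANTCA, with any base at N, was in 6.75% of windows. It had 1 match in that of Trem2 and 0 in those of Trem1, Treml4 and Hcst. The Trem2 match reads TGAATCA, with A at N, and so is not the AP-1 consensus, which has C or G there. The C/EBP motif TTNNGCAA, in 9.56% of windows, had 0 matches in the 4 windows. These are letter matches and no measurement of binding.

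Per length of transcript, the DAP12 adaptor was the most abundant of the 7, and the receptors other than Trem2 were rare. In the non-injured libraries the median level was 2440 TPM (abundance per transcript length, lowest 899.8, highest 2960) for Tyrobp and 1574 TPM (240.5 to 2018) for Trem2. Hcst followed at 53.8 TPM (18.7 to 115.4). Treml4 lay at 4.96 TPM (0.225 to 11.9), Treml2 at 2.55 TPM (0.368 to 5.10), Trem1 at 0.619 TPM (0 to 1.55) and Trem3 at 0.105 TPM (0 to 0.465). At the wound the first 3 kept their order, with medians of 3224 TPM for Tyrobp, 1384 TPM for Trem2 and 77.5 TPM for Hcst. Tyrobp exceeded Trem2 in 7 of 8 libraries on each side, the exception being day 14 females, and Trem2 exceeded Hcst in 16 of 16. The other receptors at the wound lay close together, with median levels of 7.28 TPM for Trem1, 6.87 TPM for Treml4, 4.41 TPM for Trem3 and 3.902 TPM for Treml2. Their order at the wound was not stable over libraries: Trem1 exceeded Treml4 in only 2 of 8, and Trem3 exceeded Treml2 in 5 of 8.

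**Figure D1:**
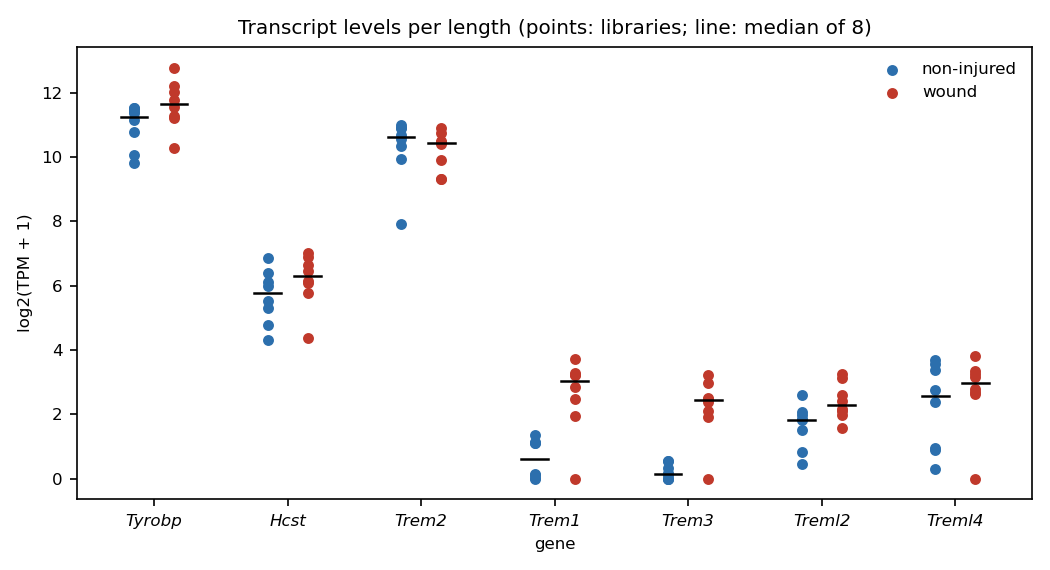
Level of each gene per transcript length, as log2(TPM + 1), in the 8 wound and 8 non-injured libraries, with 1 point per library and a line at the median of 8. Tyrobp and Trem2 sit far above the rest on both sides, and Trem1 and Trem3 are near 0 in the non-injured libraries (medians 0.619 and 0.105 TPM).

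The main comparison asked how the wound side differed from the non-injured side, by day and as the mean over the 4 days, in edgeR's quasi-likelihood test with Benjamini-Hochberg adjustment over 28597 genes. For the mean over days 6 of the 7 genes rose, 0 fell and Trem2 was not called, where 7.76% of all genes tested rose (2219) and 7.96% fell (2277). With limma on log2(TPM + 1) that split was 1217 to 3724. The median effect of the 7 was 1.69 on the log2 scale and that of all genes tested was -0.32. Adaptors and the small receptors differed in size: Trem1 and Trem3 changed most, Treml2 and Treml4 less, and both adaptors about 1 on the log2 scale. The count of 6 was not firm, since 2 of these calls, Hcst and Treml4, held in 4 of 17 alternative fits of the 16 libraries each, and without the day 4 and day 7 male pairs 4 of 7 were called. With limma on log2(TPM + 1) or log2(TPM + 0.1) 3 of 7 were called. Without the day 14 male pair Trem1 and Trem3 had no estimate, and Hcst and Treml4 also lost their calls. The TMM scale puts the median of 9025 well measured genes at 0.20 for this effect, median-ratio factors put it at 0.06 and TPM at -0.27. Relative to that median, Tyrobp lay at 0.95 on the count scale and also at 0.95 on the log2(TPM + 1) scale. For the day 7 effect the same median was 0.53 with TMM, 0.16 with median-ratio factors and -0.52 on log2(TPM + 1). The day 7 effects given below therefore depend more on the scale.

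**Figure D2:**
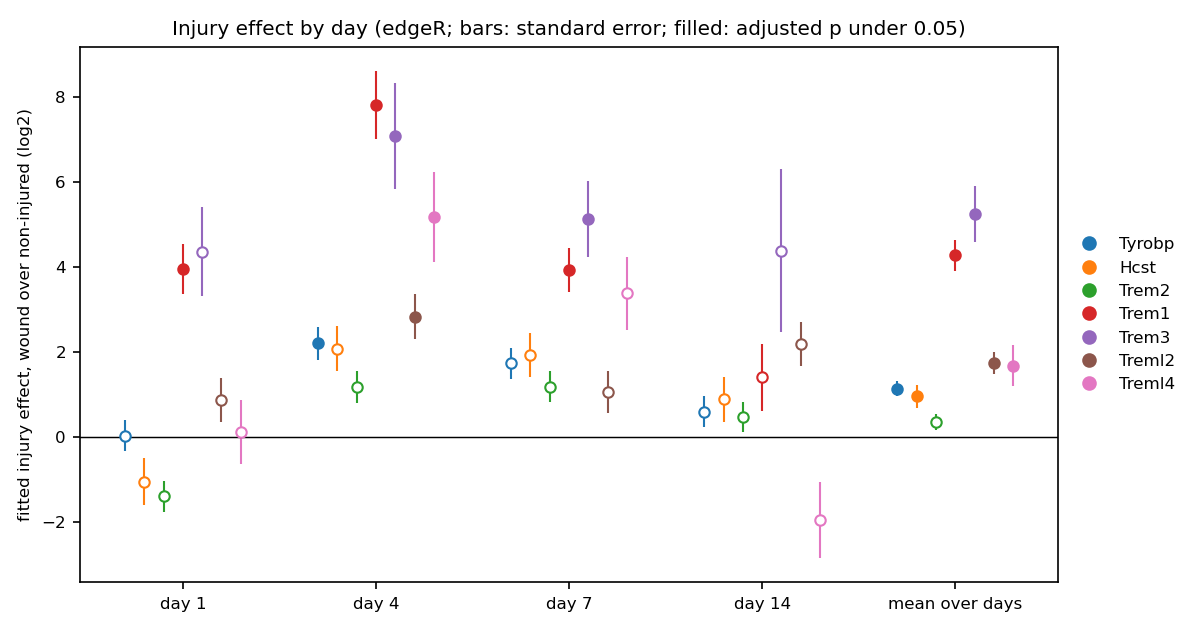
Fitted injury effect (wound over non-injured, log2) of each gene at each day and as the mean over days, with bars of 1 standard error and filled points where the adjusted p was under 0.05. The filled points are 1 gene at day 1, 5 at day 4, 2 at day 7, 0 at day 14 and 6 for the mean.

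Trem1 was low in every non-injured library and rose at the wound. At day 1 it stood at 26.3 CPM in the female and 6.545 CPM in the male wound library, against 2.24 and 0.141 CPM. At day 4 the values were 25.8 and 23.2 CPM against 0.123 and 0.0775 CPM, and at day 7 they were 25.6 and 44.4 CPM against 1.545 and 3.05 CPM. Every wound library of days 1 to 7 lay above every non-injured library. At day 14 the male pair had 5.22 against 1.95 CPM, and the female pair had 0 counts on both sides, which at 3 counts allows up to 0.118 and 0.123 CPM. The mean effect was 4.28 on the log2 scale (SE 0.36, adjusted p = 0.000181), higher in 7 of 8 pairs. By day, Trem1 rose by 3.96 at day 1 (SE 0.59, adjusted p = 0.0214), 7.82 at day 4 (SE 0.80, adjusted p = 0.00897) and 3.94 at day 7 (SE 0.52, adjusted p = 0.033). At day 4 the non-injured side rests on 8 counts, and the ratio of summed counts was 230-fold (95% exact interval 117 to 534, counting error only). Day 14 was not called (1.42, SE 0.79, adjusted p = 0.382).

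Trem3, a mouse receptor that pairs with DAP12 and lies next to Trem1, followed the same course at lower counts. Wound libraries held 3.38 and 1.70 CPM at day 1 (female and male), 2.72 and 6.89 CPM at day 4, 3.75 and 8.49 CPM at day 7, and 0 and 1.40 CPM at day 14. The non-injured libraries held 0 to 0.25 CPM, with 3 of the 8 at 0 counts. Apart from the day 14 female library at 0, every wound library lay above every non-injured one. The mean effect was 5.25 on the log2 scale (SE 0.66, adjusted p = 0.000869), higher in 7 of 8 pairs. Trem3 was called at day 4 (7.09, SE 1.248, adjusted p = 0.0258) and day 7 (5.14, SE 0.89, adjusted p = 0.0476) but not at day 1 (4.37, SE 1.05, adjusted p = 0.0834) or day 14 (4.40, SE 1.92, adjusted p = 0.29). The day 4 estimate compares 293 counts with 2, a ratio of 167-fold whose exact 95% interval runs from 45.7 to 1382.

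The summed monocyte markers exceeded their non-injured partner in each pair. Border macrophage markers did so in 7 of 8 pairs, the exception being day 1 females (745.9 against 747.8 CPM). Neutrophil and dendritic cell sums did so in 5 and 0 of 8. The largest parts of the monocyte sum were Fn1, Cd44 and F13a1, with wound medians of 259, 121 and 77.6 CPM. F13a1 is also on the border macrophage list. At day 4 the monocyte marker sum stood at 2519 CPM (female) and 609.8 CPM (male) at the wound, against 202.4 and 64.05 CPM on the other side. In the day 14 female libraries, where Trem1 and Trem3 were at 0, the monocyte sum was 377.9 against 63.96 CPM and 9 of 12 neutrophil markers were at 0 on each side. These libraries detected the fewest genes. On the non-injured side 4 of 10 monocyte and 11 of 11 NK and T cell markers were at 0 too. At the wound these were 1 of 10 and 6 of 11. The neutrophil sum was lower at the wound in both day 1 pairs (256.7 and 130.2 CPM against 429.5 and 436.2 CPM) and in day 4 females (570.1 against 714.5 CPM), and higher in the other 5 pairs. On the non-injured side it was mostly Csf3r, with a median of 293.5 CPM where the sum had 303.5 CPM. In each day 1 non-injured library 6 of the 12 markers were at 0. For the mean over days 7 of the 12 rose and 0 fell. The dendritic cell sum lay below its non-injured partner in 8 of 8 pairs, but most of it was Siglech, which is also on the microglia list. Siglech had medians of 179.3 CPM at the wound and 777 CPM elsewhere, where the sum had 202.4 and 802.8 CPM. Of the 8 dendritic markers 1 rose and 1 fell for the mean over days. By Pearson correlation of log2(CPM + 1) over the 16 libraries, the gene most like both Trem1 (r = 0.945) and Trem3 (r = 0.962) was Chil3, itself on the monocyte list, at a mean of 26.03 CPM at the wound and 0.67 CPM elsewhere. Next were Ikbke and Zbp1 for Trem1 (r = 0.942 and 0.941) and Trem1 itself and S100a11 for Trem3 (r = 0.947 and 0.940). These are descriptions over libraries that share the injury, day and depth, and the part of other cell types in the levels was not tested.

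Treml2, whose product is found on macrophages, neutrophils and B cells and does not need DAP12, was higher at the wound in 8 of 8 pairs. The female and male wound libraries held 11.1 and 5.54 CPM at day 1, 32.8 and 13.8 CPM at day 4, 15.6 and 7.21 CPM at day 7, and 33.3 and 11.3 CPM at day 14. Their non-injured partners held 6.38 and 2.79 CPM, 4.92 and 1.71 CPM, 5.625 and 4.64 CPM, and 9.86 and 1.59 CPM. The female library was the higher one in 8 of 8 comparisons of females with males at a given day and side by CPM and in 6 of 8 by TPM, which was seen after the fact and not tested. The sides themselves overlapped. The mean effect of Treml2 over days was 1.75 (SE 0.26, adjusted p = 0.00243) and its day 4 effect 2.84 (SE 0.53, adjusted p = 0.0357). It was not called at day 1 (0.88, SE 0.51), day 7 (1.07, SE 0.50) or day 14 (2.19, SE 0.52, adjusted p = 0.135; DESeq2 adjusted p = 0.00139). On the TPM scale the day 7 value turned to -0.06. Its most similar gene was Eif2ak2 (r = 0.894), followed by Cd48 (r = 0.883) and Renbp (r = 0.871).

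Treml4, a receptor that binds dying cells and aids sensing of nucleic acids, had non-injured levels that varied between days. The non-injured libraries held 6.895 and 5.13 CPM at day 1, 0.389 and 0.233 CPM at day 4, 2.16 and 0.614 CPM at day 7, and 5.96 and 7.98 CPM at day 14 (female and male). The wound libraries held 12.9 and 2.90 CPM, 11.6 and 13.2 CPM, 17.6 and 9.40 CPM, and 0 and 4.56 CPM. So the wound side was higher in both pairs at days 4 and 7, lower in both at day 14, and split by sex at day 1. The value of 0 CPM is that of the day 14 female wound library, which detected the fewest genes of all (14737). The change of Treml4 among non-injured libraries over days had an unadjusted p of 0.0121 in edgeR and an adjusted p of 1. That comparison called 0% of genes in edgeR, the only tool run on it, where 478 genes had an unadjusted p under 0.05. With every gene with a count kept, 23 genes were called. Treml4 rose by 5.19 at day 4 (SE 1.06, adjusted p = 0.0418) and by 1.69 for the mean (SE 0.47, adjusted p = 0.0382), in 5 of 8 pairs. Without the day 14 male pair the mean turned to -0.48 (adjusted p = 1), and with DESeq2 it was 1.10 (adjusted p = 0.15). At day 14 the value was -1.94 (SE 0.90, adjusted p = 0.313), and DESeq2 gave -3.89 (adjusted p = 0.0172). The closest genes were Ccr1 (r = 0.792) and Sp140 (r = 0.761).

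Trem2 was lower at the wound at day 1 and higher on later days, with no call at any of them. At day 1 it stood at 501.6 CPM in the female and 259.4 CPM in the male wound library, against 1118 and 798.7 CPM. At day 4 the values were 1589 and 987.5 CPM against 1154 and 264.2 CPM, at day 7 they were 1656 and 1563 CPM against 648.1 and 767.1 CPM, and at day 14 they were 993.4 and 781.8 CPM against 757.3 and 527.0 CPM. The wound side was thus lower in both pairs at day 1 and higher in all 6 later pairs. The fitted effects were -1.39 at day 1 (SE 0.36, adjusted p = 0.117), 1.18 at day 4 (SE 0.37, adjusted p = 0.16), 1.19 at day 7 (SE 0.36, adjusted p = 0.15) and 0.48 at day 14 (SE 0.36, adjusted p = 0.503). Their mean was 0.37 (SE 0.18, adjusted p = 0.224) and turned to -0.08 on the TPM scale. DESeq2 called the day 1 value (-1.31, adjusted p = 0.0309).

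Per length of transcript, the day 1 levels of Trem2 were nearly the same in both sexes, 638.2 and 637.8 TPM at the wound against 1908 and 1909 TPM. From day 4 on, the TPM values had no common direction, with 1710 and 965.7 TPM at the day 4 wound (female and male) against 2018 and 240.5 TPM. The value of 240.5 TPM is that of the library with 25.7% mitochondrial counts. Day 7 gave 1919 and 1437 TPM against 1655 and 1306 TPM, and day 14 gave 1345 and 1423 TPM against 1492 and 983.2 TPM. In all, Trem2 was higher at the wound in 6 of 8 pairs by CPM and in 4 of 8 by TPM. The microglial marker sum was also lower at the wound at day 1, at 17130 and 10070 CPM against 38680 and 34600 CPM. It was lower too in 5 of the 6 later pairs, where Trem2 was higher by CPM, such as 39730 against 57710 CPM in day 4 females and 38790 against 69560 CPM in day 14 females. Its part in the Trem2 value was not tested. Genes most like Trem2 were Ly6e (r = 0.949), Lsp1 (r = 0.928) and Cd300a (r = 0.925).

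Tyrobp, the adaptor that Trem1, Trem2 and Trem3 share, was near its non-injured level at day 1 and rose at day 4. Day 1 gave 769.3 and 341.0 CPM at the wound (female and male) against 671.6 and 367.3 CPM, so the sides overlapped. At day 4 the wound libraries held 1772 and 2923 CPM against 644.5 and 373.7 CPM, and at day 7 they held 1375 and 1359 CPM against 400.7 and 416.2 CPM. By day 14 the values were 432.9 and 777.3 CPM against 310.4 and 469.6 CPM. The effect was 0.04 at day 1 (SE 0.36, adjusted p = 0.99), 2.21 at day 4 (SE 0.38, adjusted p = 0.0288), 1.74 at day 7 (SE 0.37, adjusted p = 0.075) and 0.60 at day 14 (SE 0.36, adjusted p = 0.413). The mean was 1.15 (SE 0.18, adjusted p = 0.00344), or 2.22-fold, higher in 7 of 8 pairs. On log2(TPM + 1) in limma the mean was 0.68 and not called (adjusted p = 0.0927). Without the day 4 male pair the day 4 effect was 1.47 (adjusted p = 0.225). The closest genes were Ptpn18 (r = 0.952), Lst1 (r = 0.918) and Gabarap (r = 0.910).

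Hcst had far fewer counts than its neighbour and a day 1 value of the opposite sign from later days. At day 1 it stood at 10.1 and 1.72 CPM at the wound (female and male) against 15.8 and 5.24 CPM. The wound side was higher in all 6 later pairs: 16.3 and 30.9 CPM against 5.51 and 4.85 CPM at day 4, 20.3 and 37.4 CPM against 4.11 and 12.2 CPM at day 7, and 18.25 and 9.85 CPM against 13.2 and 3.69 CPM at day 14. The mean effect was 0.97 (SE 0.27, adjusted p = 0.0375). None of its days was called in edgeR: -1.04 at day 1 (SE 0.55, adjusted p = 0.396), 2.09 at day 4 (SE 0.53, adjusted p = 0.0878), 1.93 at day 7 (SE 0.52, adjusted p = 0.12) and 0.90 at day 14 (SE 0.53, adjusted p = 0.409). DESeq2 called it at day 4 (1.84, adjusted p = 0.0141) and day 7 (1.59, adjusted p = 0.0458). The call for the mean was lost without the day 1 female pair (0.84, adjusted p = 0.213), the day 1 male pair (1.08, adjusted p = 0.0859), the day 4 male pair (0.84, adjusted p = 0.112), the day 7 female pair (0.89, adjusted p = 0.148), the day 7 male pair (1.07, adjusted p = 0.103) or the day 14 male pair (0.86, adjusted p = 0.0873). Gngt2 was most like it (r = 0.967), then Mthfsl (r = 0.924) and the myeloid marker Aif1 (r = 0.924).

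**Figure D3:**
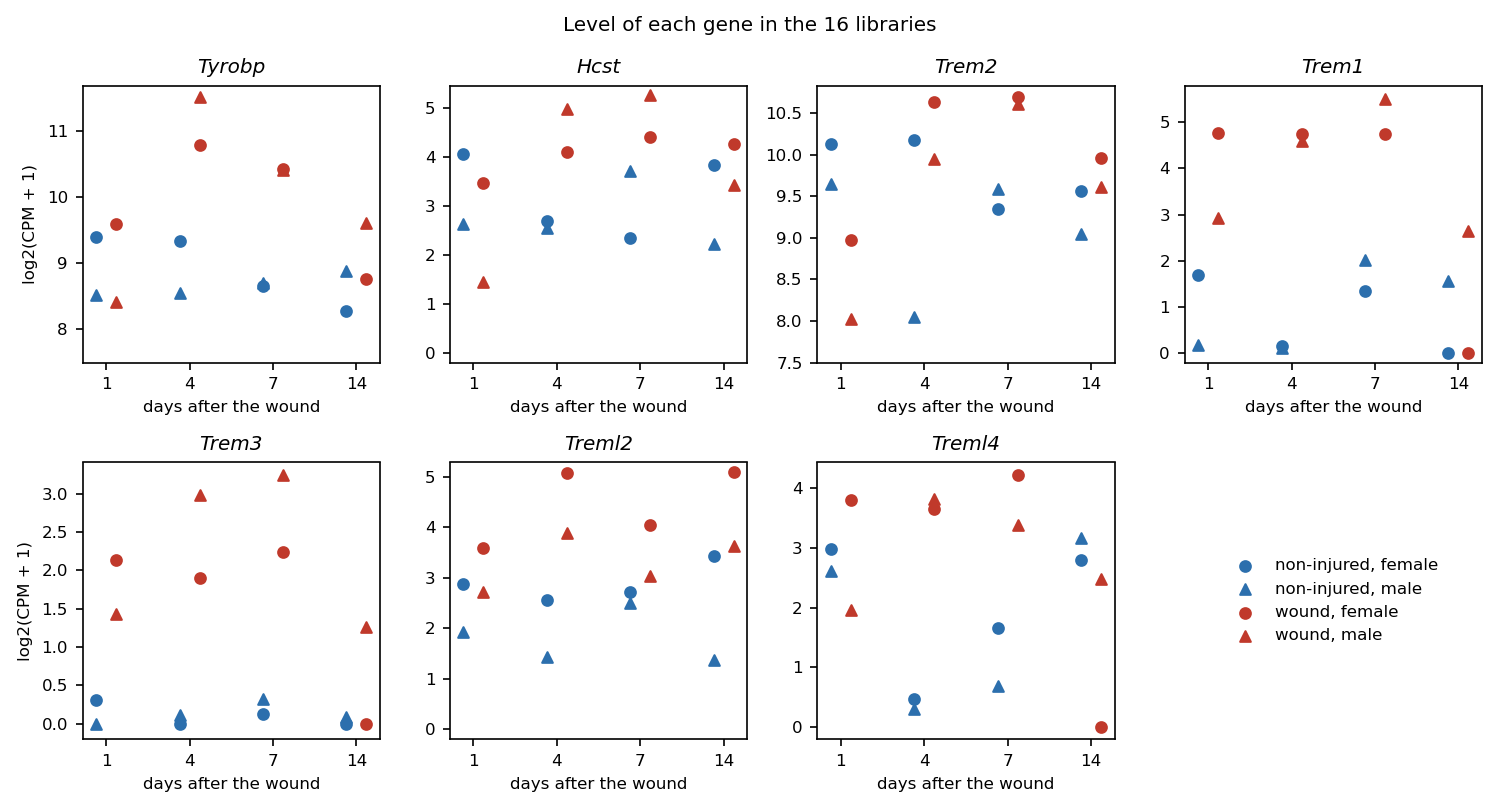
Level of each gene as log2(CPM + 1) by day in the wound and non-injured libraries, circles for females and triangles for males, with 1 point per library. Trem1 and Trem3 are separated by side up to day 7 and at 0 in both day 14 female libraries, and Trem2 and Hcst are lower at the wound at day 1 and higher later.

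By day, 1 of the 7 genes rose at day 1 (0.472% of all genes tested rose and 0.58% fell), 5 rose at day 4 (1.52% and 0.521%, or 435 and 149 genes, against 357 and 269 with median-ratio factors), 2 rose at day 7 (0.318% and 0.0559%, or 91 and 16 genes, against 51 and 40) and 0 at day 14 (0.0455% and 0.014%). At day 14, 2 of the 7 had an unadjusted p under 0.05 and DESeq2 called 2, Treml2 as a rise and Treml4 as a fall. In edgeR none of the 7 fell on any day, while DESeq2 called 2 falls, Trem2 at day 1 and Treml4 at day 14. These day-wise calls rest on 2 pairs a day. Each of the 8 was lost in at least 3 of the 8 fits that leave out 1 pair: for example, Trem1 at day 1 had an adjusted p of 0.639 without the day 1 female pair, and Trem1 at day 4 had 0.0757 without it. Without the day 4 male pair, whose non-injured library is the one high in mitochondrial counts, 0 of the 7 genes were called at day 4: Trem1 had 7.68 (adjusted p = 0.0563), Trem3 9.57 (adjusted p = 0.309), Treml2 2.75 (adjusted p = 0.184), Treml4 4.89 (adjusted p = 0.223) and Tyrobp 1.47 (adjusted p = 0.225). That fit called 20 genes in all at day 4, where 584 were called with the pair. For the mean over days, 4 of the 7 were called without it and 6 with it. In the authors' deposited table the adjusted p was under 0.05 for 3 of the 7 genes at day 1, 6 at day 4, 5 at day 7 and 2 at day 14. The share of all genes under that threshold there was not counted, so these member counts have no background beside them. The authors' deposited table gives Trem2 a log2 fold change of -1.33 at day 1 with an adjusted p of 0.000388. How its spread between samples was estimated is not given in the sources used here.

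Whether the injury effect itself differed between days was tested next. For 5 of the 7 genes the unadjusted p was under 0.05: Treml4 (0.00146), Trem2 (0.0021), Trem1 (0.00425), Tyrobp (0.00764) and Hcst (0.00897). None passed adjustment (smallest adjusted p = 0.675), and edgeR called 0% of the genes tested (1819 genes had an unadjusted p under 0.05, and DESeq2 called 199). A contrast of day 1 with the mean of days 4 to 14, added after the values were seen, gave Hcst -2.68 (SE 0.63, adjusted p = 0.368), Trem2 -2.34 (SE 0.42, adjusted p = 0.26) and Tyrobp -1.48 (SE 0.42, adjusted p = 0.489). For it, edgeR called 0% of genes as higher and 0% as lower at day 1 (2100 had an unadjusted p under 0.05). DESeq2 called 278 genes for it, Trem2 (-2.05, adjusted p = 0.013) and Hcst (-2.50, adjusted p = 0.0174) among them. Wound libraries alone differed between days for 0.521% of genes and for 0 of the 7, of which 3 had an unadjusted p under 0.05 (smallest adjusted p = 0.37, Trem1). The injury effect did not differ detectably between females and males for any of the 7: 0% of genes were called (2094 had an unadjusted p under 0.05, of which 0 of the 7, and no other tool was run), and the differences of the 7, female minus male, lay between -0.45 (Treml4) and -0.12 (Hcst).

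Ratios within a library hardly depend on how libraries are scaled, except where a gene has 0 counts. Of 3 ratios compared, that of the receptor Trem2 to its adaptor Tyrobp fell at the wound in each of the 8 pairs. By TPM it was 0.258 and 0.272 at the day 1 wound (female and male) against 0.645 and 0.726, and 0.36 and 0.137 at day 4 against 0.687 and 0.267. It was 0.463 and 0.483 at day 7 against 0.603 and 0.745, and 1.08 and 0.41 at day 14 against 1.39 and 0.437. The day 4 male and day 14 female pairs lie at the ends of the range on both sides, so the sides overlap and only the pairs separate them. The mean pair difference of log2((TPM + 1)/(TPM + 1)) was -0.76 ± 0.47 (SD, n = 8 pairs; exact two-sided sign-flip permutation test, p = 0.00781, the smallest that 8 pairs can give; adjusted over 3 ratios 0.0117). The Hcst to Tyrobp ratio differed by -0.18 ± 0.71 (SD, n = 8 pairs; exact sign-flip permutation p = 0.508), below 0 in 4 of 8 pairs, which include both at day 1. By TPM the Trem1 to Trem2 ratio was higher in 8 of 8 pairs by 2.05 ± 1.53 (SD, n = 8 pairs; exact sign-flip permutation p = 0.00781, adjusted 0.0117). In the day 14 female pair Trem1 was at 0 on both sides, so that difference comes from Trem2 alone. Its sign depends on the unit, since Trem2 there was lower at the wound by TPM and higher by CPM (993.4 against 757.3 CPM). Without that pair the mean was 2.32 and 7 of 7 pairs were above 0 (exact permutation test, adjusted p = 0.0234). A pseudocount of 0.1 in place of 1 gave a mean of 3.26 over the 8 pairs. TMM-scaled CPM in place of TPM gave 2.49 (exact sign-flip permutation test, adjusted p = 0.0234).

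**Figure D4:**
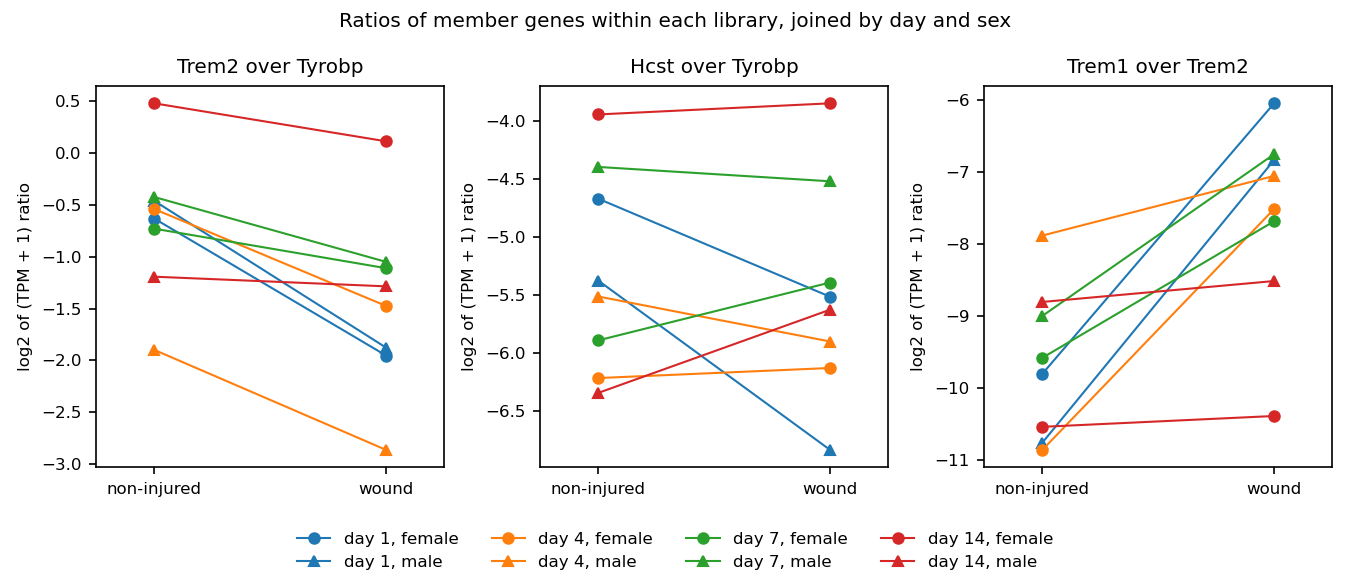
Log2 ratio of Trem2 to Tyrobp, Hcst to Tyrobp and Trem1 to Trem2, from TPM + 1, in each non-injured and wound library, with lines joining the libraries of 1 day and sex. All 8 lines slope down for Trem2 to Tyrobp (mean -0.76), they go both ways for Hcst to Tyrobp, and all 8 slope up for Trem1 to Trem2 (mean 2.05).

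Genes around the receptors and adaptors were read from 6 lists of 65 genes in all, of which 19 rose, 5 fell and 41 were not called for the mean over days (7.76% of all genes rose and 7.96% fell). Over 15 alternative fits 13 to 22 of the 65 rose and 1 to 10 fell, with 13 and 10 on log2(TPM + 1) and 15 and 1 without the day 1 male pair or without the day 7 female pair. On log2(TPM + 1) 1217 of all 19507 genes tested rose and 3724 fell. Other receptors that signal through DAP12 or DAP10 had 8 of 13 rises and 1 fall in the main fit. Their median effect was 2.64, against -0.32 for all genes tested and 0.20 for the 9025 genes at 10 CPM or more. Sirpb1b, Sirpb1c and Sirpb1a are activating signal-regulatory proteins so alike that their counts may be split among them. Sirpb1b went from a mean of 0.504 to 11.0 CPM (log2 6.34, SE 0.66, adjusted p = 0.000479) and Sirpb1c from 3.03 to 35.0 CPM (5.09, SE 0.54, adjusted p = 0.000502). Cd200r4, an activating member of the CD200 receptor family, went from 1.74 to 34.6 CPM (4.75, SE 0.41, adjusted p = 0.00017). Cd300lb, a lipid-binding receptor, went from 4.00 to 60.6 CPM (4.06, SE 0.45, adjusted p = 0.00071). All of these were higher in 8 of 8 pairs. The single fall was Siglech, a DAP12-coupled lectin that is also a microglial marker, from 958.4 to 258.1 CPM in 8 of 8 pairs (-2.12, SE 0.22, adjusted p = 0.00058); it was chosen after its values were seen. Of the receptors in this list, 6 to 9 rose over 15 alternative fits.

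Fcer1g, the ITAM adaptor of Fc receptors, rose from 899.1 to 2415 CPM (1.46, SE 0.23, adjusted p = 0.00345) in 8 of 8 pairs, and Cd247, the T cell receptor zeta chain, was not called. The kinases and relay proteins below the adaptors had 3 rises and 4 falls among 29. Their median effect of 0.22 was close to the 0.20 of the 9025 genes at 10 CPM or more. The 4 falls became 7 with limma on log2(TPM + 1), where 3724 of all 19507 genes tested fell, against 2277 of 28597 in the main fit. With sex in place of pairs they became 0, where 1248 of 28597 fell. They also became 0 when the male pair of day 1 or the female pair of day 7 was left out, and 1 when the female pair of day 1, the male pair of day 7 or the female pair of day 14 was. Syk itself, the kinase that binds the ITAM, lay at 83.0 CPM at the wound and 81.0 CPM elsewhere (0.22, SE 0.25, adjusted p = 0.673). Fgr, a Src-family kinase of myeloid cells, rose from 10.5 to 56.4 CPM (2.55, SE 0.32, adjusted p = 0.00126). Rac2, a GTPase of blood cells, rose by 1.32 (SE 0.20, adjusted p = 0.00249), and Lat2, a linker phosphorylated below ITAM receptors, by 1.06 (SE 0.18, adjusted p = 0.00482). Src fell (-1.27, SE 0.34, adjusted p = 0.0359), a call that held in 6 of 15 alternative fits. Of the inhibitors of this pathway only Ptpn6, which encodes the phosphatase SHP-1, was called among 6 (0.58, SE 0.17, adjusted p = 0.0463), and it kept the call in 1 of 15 alternatives.

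Among 6 reported ligands 3 rose and 0 fell. Lgals3, which encodes the lectin galectin-3, went from 24.6 to 740.1 CPM in 8 of 8 pairs (6.28, SE 0.57, adjusted p = 0.000327). Apoe, the lipoprotein that Trem2 binds, rose by 2.60 (SE 0.41, adjusted p = 0.00333) in 6 of 8 pairs, the day 1 value being -1.55 (adjusted p = 0.361). Hmgb1, a nuclear protein reported to bind Trem1, rose by 0.64 (SE 0.16, adjusted p = 0.0269), held in 5 of 15 alternatives. Of 9 genes for proteases that cut Trem2, 3 rose and 0 fell. Adam10 and Adam17, the sheddases that release its outer part, were not called (0.13, SE 0.20, and 0.54, SE 0.20). Psen2, a catalytic subunit of gamma-secretase, rose from 20.4 to 72.3 CPM in 8 of 8 pairs (1.96, SE 0.31, adjusted p = 0.0032). The gamma-secretase subunits Aph1c (1.60, SE 0.26, adjusted p = 0.00406) and Psenen (0.93, SE 0.21, adjusted p = 0.0168) rose too, the call of Psenen holding in 7 of 15 alternative fits. Aph1c has a near-identical copy, Aph1b, so how the counting split their reads is uncertain. Aph1b was at -1.06 (SE 0.40, adjusted p = 0.105) and below 0 in 15 of 15 alternatives.

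**Figure D5:**
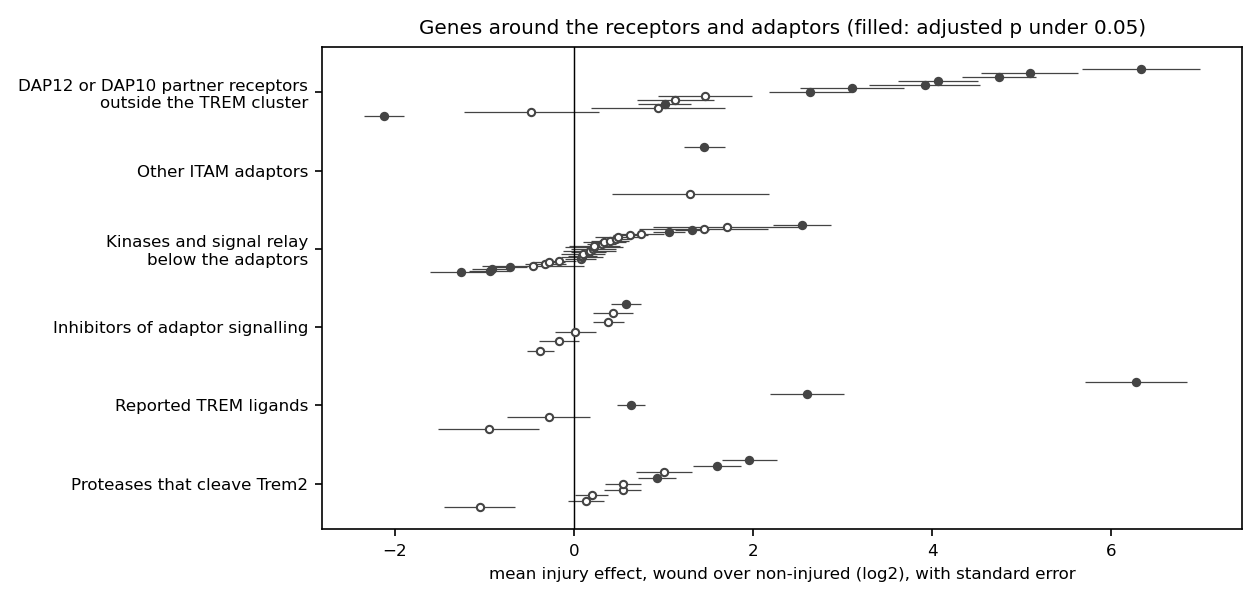
Mean injury effect over days (wound over non-injured, log2) with bars of 1 standard error for the listed genes around the receptors and adaptors, 1 point per gene, filled where the adjusted p was under 0.05; Apoa1, with almost no counts, is left out. Of the partner receptors 8 of 13 rose, and the kinases lie around a median of 0.22.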

How the data were processed

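Salmon 1.0.0 and DESeq2 1.26.0 are named in the submitters' processing notes. For build and annotation, the sources used here name none. The authors deposited estimated counts per gene, TPM values, and per-day tables of log2 fold changes with adjusted p-values. All 32 count columns were used and 0 left out. The 2 columns of each group were summed and rounded to whole numbers (TPM averaged). Samples of the same replicate number deviated from their group means with correlations of -0.0347 to 0.0587, which does not pair them; the pairs used are day and sex. Genes kept by filterByExpr (count minimum 10) were tested in edgeR 4.0.16 (TMM, quasi-likelihood, 8 pair means, 4 day effects of injury, 4 residual degrees of freedom), with calls at an adjusted p under 0.05. A called gene "rose" or "fell"; standard errors were derived from the F statistic. DESeq2 1.42.0 and limma 3.58.1 served as alternatives, with other scaling, filters and left-out pairs. Intervals are exact at 95%, the limit of a count of 0 is 3 counts, and both cover counting error only.

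The genes and lists were chosen with earlier results of these data known. All 7 genes are described; from each list up to 4 called genes with the largest mean effect at 1 CPM or more were named, with defining genes and exceptions as stated; the 3 most alike genes come from those at 10 CPM or more, without predicted models; some genes are not reported here. Marker lists of microglia, monocytes and neutrophils are given in the text. The others, of border macrophages, dendritic, NK and T, B, platelet, neuron, astrocyte, oligodendrocyte and endothelial cells, had sums higher at the wound in 7, 0, 7, 1, 2, 0, 3, 2 and 1 of 8 pairs.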

Additional observations from a re-analysis of the deposited data

Results flagged for a closer look

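By CPM Trem2 was lower at the wound in both pairs at day 1 and higher in both at days 4, 7 and 14. By TPM it was also lower at the wound in day 4 females (1710 against 2018 TPM) and day 14 females (1345 against 1492 TPM). It was higher by TPM in 4 of 8 pairs. The difference of its injury effect between days had an unadjusted p of 0.0021 in edgeR and an adjusted p of 0.675. Hcst showed the same signs as Trem2 by CPM, with an unadjusted p of 0.00897 (adjusted p = 0.675). Treml4 was higher at the wound in both pairs at days 4 and 7 and lower in both at day 14, with an unadjusted p of 0.00146 (adjusted p = 0.675). In 14 groups of 8 libraries, a check on the log2(CPM + 1) scale flagged no library for any of the 7 genes. It set each library against the other 7 of its side, and chance flags about 1 in 20 groups. Each group mixes 4 days, so the absence of a flag does not show that the libraries were alike. The day 14 female wound library held 0 CPM of Trem1, Trem3 and Treml4. The other 7 wound libraries held 5.22 to 44.4, 1.40 to 8.49 and 2.90 to 17.6 CPM. Trem2 was at 264.2 CPM in the day 4 male non-injured library, against 527.0 to 1154 CPM in the other 7.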

How the results depend on the processing

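Trem1, Trem3 and Treml2 kept their calls for the mean over days in every alternative fit of the 16 libraries that could be computed (16, 16 and 17 of them), Tyrobp in 15 of 17, Hcst and Treml4 in 4 of 17 each. Trem1 and Trem3 gave no mean or day 14 value without the day 14 male pair, since the remaining day 14 libraries held 0 counts. Genes called at day 1 (301), day 4 (584), day 7 (107) and day 14 (17) became 538 and 40 with median-ratio factors (days 1 and 14), 101, 210, 16 and 2 with every gene with a count kept, 2462, 1870, 2154 and 2110 with DESeq2, 643, 345, 182 and 105 with limma on log2(TPM + 1), and 12, 19, 0 and 7 with sex in place of pairs. With limma on log2(TPM + 0.1) days 1, 4 and 14 had 578, 307 and 121. Without the day 4 and day 7 male pairs, chosen after seeing the data, days 1, 4 and 14 had 476, 68 and 118, the mean over days 2188 and the difference between days 1. The mean over days (4496 genes) had 2097 with sex in place of pairs. Day 1 against later days had 278 with DESeq2, 4 with limma on log2(TPM + 1) and 4 without those male pairs; the difference between days had 199 with DESeq2. Wound libraries over days (149) had 99 with median-ratio factors and 445 with every gene kept, and non-injured ones 23 with every gene kept.

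Treating the 32 columns as separate samples takes counting noise for the spread between animals. It called 11341, 10358, 14267 and 11697 genes at days 1, 4, 7 and 14, 14503 for the mean, 14608 between days and 7580 for day 1 against later days. With the replicate block these were 8197, 7672, 11213, 8501, 12439, 9167 and 4427; the numbers do not pair the samples. Leaving out 1 pair or 1 replicate number gave 0 to 771, 0 to 706, 0 to 632 and 0 to 146 at the 4 days, 1517 to 4653 for the mean, 0 to 1 between days and 0 to 25 for day 1 against later days. The Trem2 to Tyrobp ratio ranged from -0.8579 to -0.669, that of Trem1 to Trem2 from 1.785 to 2.324 (3.261 with a pseudocount of 0.1 and 2.486 from TMM-scaled CPM, against 2.052), and that of Hcst to Tyrobp from -0.3056 to 0.006301, where it reversed without the day 1 male pair.

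Reversed signs were found for values near 0 or of few counts; the cause was not tested. On log2(TPM + 1) and log2(TPM + 0.1) they were the Trem2 mean (-0.0829 and -0.0827), Treml2 at day 7 (-0.0629 and -0.0669), Treml4 at day 1 (-0.4034 and -0.4489), Tyrobp at day 1 (-0.212 and -0.2121), and day 1 against later days for Trem1 (0.3819 and 0.6639) and Trem3 (0.2492 and 0.6601), with 0.2994 and 0.2508 in DESeq2. Without the day 1 female pair these last became 1.0944 and 3.2564, Treml4 at day 1 -0.831 and Tyrobp at day 1 -0.1184. Without the day 14 male pair the Treml4 mean was -0.4789 and its day 1 contrast 0.7638. Over the fits that leave out 1 pair these values ranged from -0.8435 to 1.0944 (Trem1, day 1 against later days), -2.0214 to 3.2564 (Trem3, the same), -3.0166 to 0.7638 (Treml4, the same), -0.4789 to 1.9773 (Treml4 mean), -0.831 to 0.9036 (Treml4 at day 1) and -0.1184 to 0.1921 (Tyrobp at day 1). Tyrobp at day 1 was -0.0253 and -0.0252 on 32 columns without and with the replicate block, and -0.0412 and -0.0104 without replicate 1 or 2. Of 792 alternative values for single genes 606 kept sign and side of the threshold, 102 lost and 60 gained a call, and 24 reversed. Trem1 and Trem3 had 0 counts in both day 14 female libraries, and Treml4 had 0 in the wound library of that pair only. Those libraries held 35794972 and 33306035 counts in all (wound and non-injured), more than the day 14 male libraries. They detected the fewest genes, 14737 and 14777. Why these members were at 0 there was not tested.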
